A study of Homo sapiens with 8 samples.

Results

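YAP1, WWTR1, TEAD1 and 7 further genes of the Hippo pathway were measured in sequenced RNA of MDA-MB-231 cells given the bacterial messenger c-di-GMP. The 10 genes were chosen by name, and all 10 were found among the 16383 genes of the deposited count table, in 1 row each, and in the FPKM table as well. MDA-MB-231 is a human breast cancer line of mesenchymal type. The cells had been kept for 24 h with 5 µM c-di-GMP (4 libraries) or with its vehicle, phosphate-buffered saline (4 libraries). Whether each library had its own culture is not stated in the labels. The p-values therefore rest on a spread between libraries that may be no more than technical.

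YAP, encoded by YAP1, and TAZ, encoded by WWTR1, are co-activators that enter the nucleus and bind DNA through TEAD transcription factors. The kinases LATS1 and LATS2 phosphorylate both proteins, which keeps them in the cytoplasm and marks them for degradation, and several target genes encode regulators that feed back on the pathway. Because this control acts on the proteins, RNA levels of YAP1 and WWTR1 do not report their activity, and targets such as CYR61, CTGF and ANKRD1 are the usual readout. MDA-MB-231 cells are known for an inactivating mutation of NF2, an upstream activator of the LATS kinases, and for high YAP and TAZ activity.

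Total counts per library ran from 16151360 to 18040010. At the lowest total, 3 counts equal 0.186 CPM (counts scaled by library size, with TMM factors where groups are compared), a floor that covers counting error only. Vehicle replicate 3 stood apart. Its log2 CPM correlated across genes at 0.849 to 0.867 with the other libraries, which correlated at 0.9889 to 0.9945 among themselves, and genes are not independent replicates. It had 28.4% of its counts in genes of at most 2541 bases, against 13.8% to 15.6% in the other 7. Among those 7 the share was 15.25% to 15.6% with c-di-GMP and 13.8% to 14.9% with vehicle, and mitochondrial genes held 4.74% to 5.00% of counts with c-di-GMP and 3.58% to 4.45% with vehicle. Neither overlapped between the groups. A trend with gene length was taken out in an alternative fit only, and the part of both shares in the changes described here was otherwise not tested. Each member is therefore shown with vehicle replicate 3 and again in the 7 others. Markers and other genes of the pathway are given in the 7, where some had the opposite sign to that with all 8. Of the markers of the line, VIM (116 to 148 FPKM), CD44 (79.1 to 82.9 FPKM), AXL (206 to 241 FPKM) and ZEB1 (7.42 to 8.82 FPKM) were present in the 7 libraries. The epithelial genes CDH1 and EPCAM stood at 0.299 to 0.628 and 4.36 to 5.94 FPKM, and ESR1, PGR, GRHL2, PTPRC and CD3E were not among the listed genes. Of the endothelial genes, PECAM1 stood at 1.03 to 1.24 FPKM (141 to 180 counts) and CDH5 at 2 to 34 counts in the 7 libraries. CDH1 was higher with c-di-GMP in the 7 libraries, at 3.18 ± 0.681 CPM (SD, n = 4) against 2.14 ± 0.142 CPM (SD, n = 3) with vehicle (edgeR adjusted p = 0.0298, and 0.0524 after the GC correction described below). EPCAM was not called (edgeR adjusted p = 0.252). VIM rose as well, to 792 ± 25.2 CPM (SD, n = 4) with c-di-GMP against 659 ± 14.2 CPM (SD, n = 3) with vehicle (edgeR adjusted p = 3.24e-05). Of the 4 mesenchymal markers 1 rose (VIM) and 1 fell (AXL) in both fits of 7 libraries. ZEB1 and CD44 were not called, with log2 fold changes of 0.11 and -0.01, and of -0.02 and -0.07 GC-corrected (edgeR adjusted p = 0.105, 0.894, 0.837 and 0.127). With all 8 libraries VIM and AXL had the opposite sign, at -0.44 and 0.09, and were not called (edgeR adjusted p = 0.709 and 0.922). ZEB1 and CD44 kept their uncorrected signs. What part these marker changes have in the results was not tested.

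The targets CYR61, ANKRD1 and CTGF were the most abundant of the 10 genes. Levels between genes are compared in FPKM, the authors' measure per transcript length and library size, and in the 7 libraries. CYR61 had 451 ± 19.8 FPKM (SD, n = 4) with c-di-GMP and 493 ± 24.4 FPKM (SD, n = 3) with vehicle, which placed it at rank 34 of the 16383 genes listed with FPKM. ANKRD1 followed with 190.2 ± 6.42 and 172 ± 6.55 FPKM in the same order of groups, at rank 107. CTGF had 99.9 ± 4.10 FPKM with c-di-GMP and 91.3 ± 0.676 FPKM with vehicle, at rank 323. These 3 targets did not overlap with each other in level in any of the 7 libraries.

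The other members stood lower, and some neighbours in the order could not be separated. AJUBA (41.97 to 45.1 FPKM) and YAP1 (40.9 to 43.5 FPKM) overlapped with c-di-GMP, whereas with vehicle AJUBA (46.6 to 49.0 FPKM) lay above YAP1 (44.5 to 44.8 FPKM). TEAD1 lay above AMOTL2 with c-di-GMP, at 31.0 to 35.1 FPKM against 30.3 to 30.8 FPKM, and below it in vehicle replicates 1, 2 and 4, at 30.3 to 31.7 FPKM against 33.8 to 41.6 FPKM. LATS2 (10.9 to 12.2 FPKM) and WWTR1 (10.8 to 11.5 FPKM) overlapped with c-di-GMP. With vehicle LATS2 (12.03 to 14.2 FPKM) lay above WWTR1 (10.2 to 10.6 FPKM). ARHGEF17 was the lowest of the 10 with c-di-GMP, at 7.82 ± 0.283 FPKM (SD, n = 4), and stood at 9.72 ± 1.05 FPKM (SD, n = 3) with vehicle, where its highest library overlapped WWTR1.

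**Figure D1:**
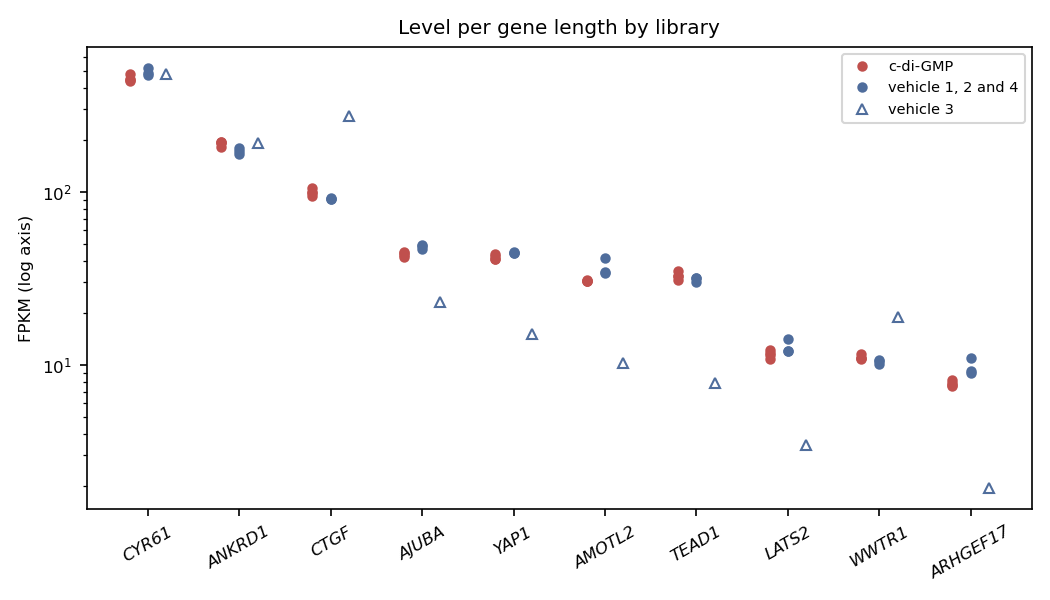
FPKM of each gene on a log axis, ordered by the mean of 7 libraries, with c-di-GMP libraries on the left of each gene (n = 4), vehicle replicates 1, 2 and 4 beside them and vehicle replicate 3 as an open triangle. CYR61 lies highest, near 451 FPKM with c-di-GMP, and ARHGEF17 lowest, near 7.82 FPKM.

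YAP1 RNA was more abundant per length than WWTR1 RNA in the 7 libraries. The ratio of YAP1 to WWTR1 FPKM was 3.77, 3.87, 3.73 and 3.78 in c-di-GMP replicates 1 to 4, against 4.25, 4.19 and 4.38 in vehicle replicates 1, 2 and 4, and 0.800 in vehicle replicate 3. The ratio is formed within a library and does not depend on the scaling between libraries. The 4 c-di-GMP libraries lay below the 3 vehicle libraries without overlap, and vehicle replicate 3 below all of them. Among the DNA-binding partners, TEAD1 (31.0 to 35.1 FPKM with c-di-GMP) was followed by TEAD3 (20.8 to 22.7 FPKM), TEAD4 (9.67 to 11.3 FPKM) and TEAD2 (5.34 to 5.96 FPKM). NF2 RNA was present at 1.92 to 2.31 FPKM with c-di-GMP and at 1.99 to 2.41 FPKM in vehicle replicates 1, 2 and 4.

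With all 8 libraries no member differed between c-di-GMP and vehicle beyond the spread between libraries. By edgeR's quasi-likelihood test 0 of the 10 members were called, where 0% of 15415 genes were called, and 0 members had an unadjusted p under 0.05, against 6.23% of genes. The groups did not overlap for 0 members on either side, against 6.93% of genes on the higher and 7.29% on the lower side. DESeq2 called 0 members with 1 at an unadjusted p under 0.05, and limma-voom called 0 with 0. The intervals were wide. For CTGF the log2 fold change was -0.48 with a 95% interval from -1.39 to 0.42, and for TEAD1 it was 0.35 with an interval from -0.54 to 1.25. CYR61, with -0.14 (-0.43 to 0.14), and ANKRD1, with 0.08 (-0.17 to 0.34), had the narrowest intervals of the 10. The median log2 fold change of the members was 0.03, against -0.05 for all genes tested.

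Vehicle replicate 3 lay far from the other libraries in both directions. The biological coefficient of variation over all genes was 36.4% with it and 4.52% without it. On the scale of all 8 libraries it held 662 CPM of CTGF, 2.98 times the median of the other 7, and 164 CPM of WWTR1, 1.796 times their median. It held less of 6 members: 98.3 CPM of YAP1, 84.0 CPM of TEAD1, 143 CPM of AJUBA, 63.6 CPM of AMOTL2 and 19.8 CPM each of LATS2 and ARHGEF17, which were 0.244 to 0.528 of the median of the others. CYR61 and ANKRD1 stood at 1.05 and 1.10 times the median. All 6 low members are genes of at least 5578 bases and CYR61, CTGF and ANKRD1 are genes of at most 2455 bases, while WWTR1, at 8413 bases, was high. Over all tested genes the median log2 ratio of vehicle replicate 3 to the other libraries was 0.74 in genes of at most 2541 bases and -0.61 in genes of at least 6964.5 bases.

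**Figure D2:**
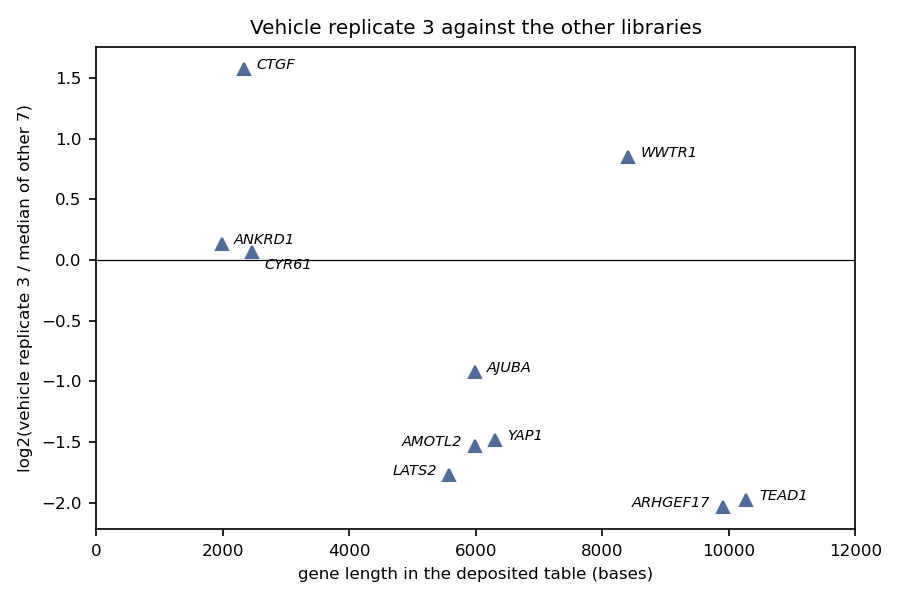
Log2 ratio of vehicle replicate 3 to the median of the other 7 libraries (CPM, y axis) against gene length in bases (x axis), 1 point per gene. The 6 genes at the lower right, of at least 5578 bases, lie below 0, CTGF lies at 1.57, and WWTR1 lies at 0.84 in spite of its length.

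Without vehicle replicate 3, 8 of the 10 members passed the threshold, with log2 fold changes between -0.33 and 0.13. ANKRD1 and CTGF rose, and YAP1, CYR61, AMOTL2, AJUBA, LATS2 and ARHGEF17 fell. In this fit 29.6% of 15647 genes were called, 13.5% higher and 16.2% lower, and among the 3497 genes at or above the level of the lowest member the share was 53.8%. The same 8 had an unadjusted p under 0.05, against 39.7% of genes. The groups did not overlap for 3 members on the higher side (17.3% of genes) and 4 on the lower side (18.3%), against 35.7% of genes in either direction. The members' median log2 fold change was -0.13, and that of all genes was below 0.01. The count of 8 called members stands beside a majority of genes called at such levels.

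Fold changes in the 7 libraries followed the GC content of transcripts, and the members cover a wide range of it. Genes under 40% GC had a median log2 fold change of 0.13 and genes of at least 60% GC one of -0.30. Each library's own GC trend was therefore also taken out. After that correction 4 of the 10 members were called: CTGF rose, and YAP1, CYR61 and AMOTL2 fell. In this fit 15.2% of 15647 genes were called, 8.58% higher and 6.62% lower, and 31.6% of genes at the level of the lowest member or above. An unadjusted p under 0.05 was found for 6 members and for 27.1% of genes. The groups did not overlap for 1 member on the higher side (12.9% of genes) and 3 on the lower side (10.7%), against 23.6% of genes in either direction. ARHGEF17 (62.8% GC) moved the most between the fits, by 0.29 on the log2 scale, and CYR61 (50.3% GC) the least, by 0.02. WWTR1 (40.9% GC) and TEAD1 (41.3% GC) had positive log2 fold changes without the correction and negative ones with it, past the threshold neither time. How much of the GC trend came from the treatment was not tested.

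**Figure D3:**
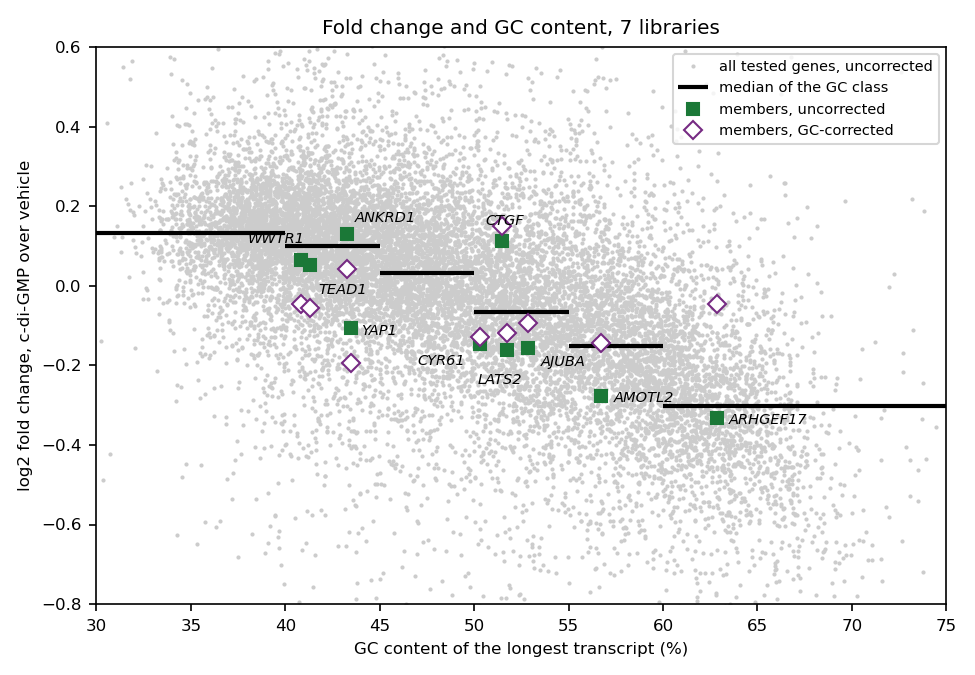
Log2 fold change of c-di-GMP over vehicle in 7 libraries (y axis) against GC content of the longest transcript (x axis), with genes as grey points, class medians as black lines, and members as green squares (uncorrected) and open diamonds (GC-corrected). Points outside the axes are not drawn. YAP1, at 43.5% GC, lies below its class median of 0.10, and CTGF, at 51.5% GC, above its class median of -0.07.

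**Figure D4:**
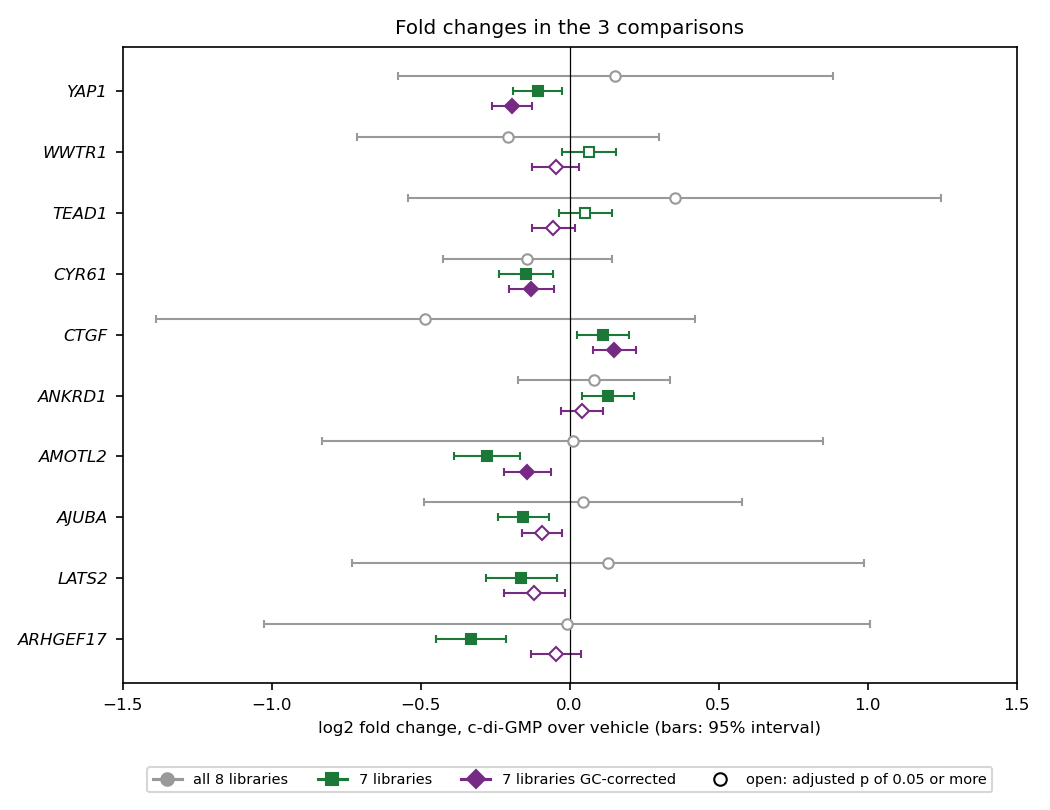
Log2 fold change of c-di-GMP over vehicle (x axis, bars show 95% intervals) for each of the 10 genes with 8 libraries, with 7 libraries, and with 7 libraries GC-corrected, filled where the adjusted p is under 0.05. Intervals with 8 libraries cross 0 for each gene, and CYR61, CTGF, AMOTL2 and YAP1 are filled in both fits of 7 libraries.

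YAP1 (ENSG00000137693, GRCh38 chromosome 11, 102110461 to 102233423), the co-activator that gives the pathway its main output, fell slightly in both fits of 7 libraries. It stood at 289.6, 283, 275 and 274 CPM in c-di-GMP replicates 1 to 4, against 303, 300.2 and 303 CPM in vehicle replicates 1, 2 and 4. Each c-di-GMP library lay below each of these 3 vehicle libraries. The log2 fold change was -0.11 ± 0.04 (SE), and -0.19 ± 0.03 GC-corrected (edgeR adjusted p = 0.0439 and 1.75e-04). Without the correction the call was lost when vehicle replicate 2 or 4, or c-di-GMP replicate 2, 3 or 4, was left out (edgeR adjusted p = 0.0524 to 0.120, log2 fold changes of -0.11 to -0.10). With the correction it held without each of the 7 (largest edgeR adjusted p = 0.00242). With 8 libraries the log2 fold change was of the opposite sign, at 0.15 ± 0.32.

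WWTR1 (ENSG00000018408, chromosome 3, 149517235 to 149736714), which encodes TAZ, was not called in any fit. It had 103, 97.8, 98.3 and 96.9 CPM in c-di-GMP replicates 1 to 4 and 95.5, 95.9 and 92.2 CPM in vehicle replicates 1, 2 and 4. The groups overlapped after the GC correction but not without it, where the difference was small. This gave a log2 fold change of 0.06 with a 95% interval from -0.03 to 0.16, and -0.05 (-0.13 to 0.03) GC-corrected (edgeR adjusted p = 0.288 and 0.479). Leaving out each library in turn gave 0.04 to 0.07, and -0.08 to -0.01 GC-corrected. Exons of annotated genes on the opposite strand overlap WWTR1 (WWTR1-AS1), YAP1 (AP000942.2), CTGF (AL133346.1) and ARHGEF17 (AP002761.3), and without strand information the reads of such a pair cannot be told apart. On the same strand RPL39P5 overlaps AMOTL2 and AL132780.3 overlaps AJUBA, so that the values of these 6 genes are uncertain to that extent.

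TEAD1 (ENSG00000187079, chromosome 11, 12674591 to 12944483), the DNA-binding partner, also stayed under the threshold. Its libraries held 354, 383, 338 and 356 CPM with c-di-GMP and 335, 349 and 350.4 CPM in vehicle replicates 1, 2 and 4, and the groups overlapped. On the log2 scale the change was 0.05 (95% interval -0.04 to 0.14), and -0.05 (-0.13 to 0.02) GC-corrected (edgeR adjusted p = 0.387 and 0.330). Without c-di-GMP replicate 2, its highest library, these values were 0.02 and -0.09 (edgeR adjusted p = 0.782 and 0.0558), and leaving out each library in turn gave 0.02 to 0.08, and -0.09 to -0.03 GC-corrected. Of its relatives, TEAD3 was called lower without the correction, at 69.4 ± 2.90 CPM (SD, n = 4) with c-di-GMP against 84.8 ± 6.02 CPM (SD, n = 3) with vehicle (log2 fold change -0.29 ± 0.05, edgeR adjusted p = 2.15e-04), and was at -0.08 ± 0.04 GC-corrected (edgeR adjusted p = 0.211). TEAD2 had -0.32 ± 0.08 and -0.15 ± 0.07, and TEAD4 -0.11 ± 0.08 and 0.11 ± 0.06 (edgeR adjusted p = 0.00573, 0.204, 0.303 and 0.266).

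**Figure D5:**
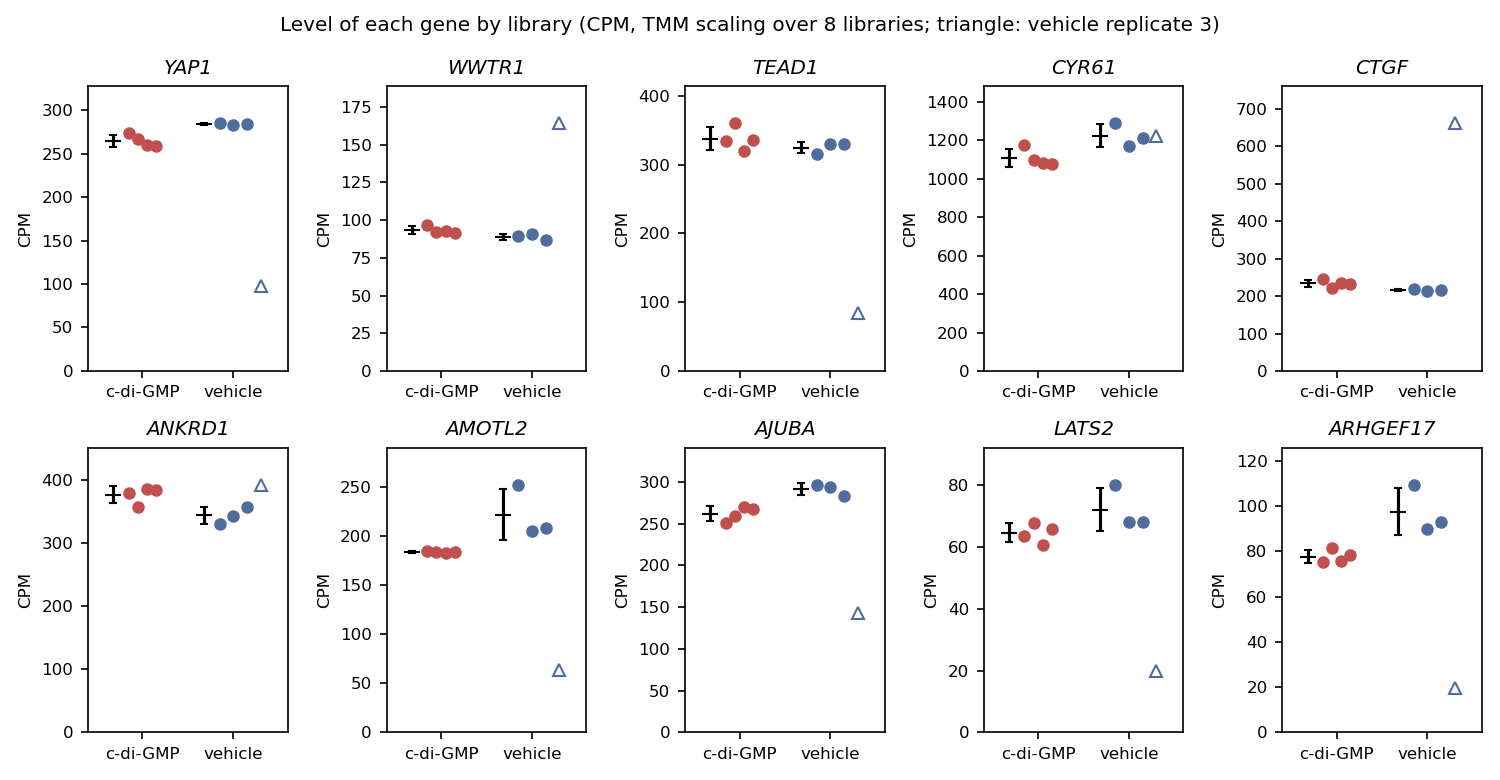
CPM of each gene by library on the scale of all 8 libraries, c-di-GMP on the left (4 points) and vehicle on the right (3 points, and vehicle replicate 3 as an open triangle), with axes from 0. Black marks give the mean ± SD of 4 c-di-GMP libraries and of vehicle replicates 1, 2 and 4. The triangle lies far from the 3 other vehicle points for YAP1, WWTR1, TEAD1, CTGF, AMOTL2, AJUBA, LATS2 and ARHGEF17.

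TEAD factors bind promoters and enhancers of their targets, and 4 promoters are printed because they belong to CTGF, AMOTL2 and YAP1, called in both fits of 7 libraries, and to ANKRD1, a standard reporter of the pathway. The letters are the 250 bases before each RefSeq start (GRCh38.p14, 5′ to 3′ on the strand of the gene, all on the minus strand except YAP1). Capitals mark the TEAD core motif GGAATG or its complement CATTCC. Windows were found for 7 of the 10 members, under the newer symbol CCN2 for CTGF, and not for CYR61, TEAD1 and ARHGEF17. AMOTL2 has another window, without a match, that is not printed.
CTGF, chr6:131951373-131951622: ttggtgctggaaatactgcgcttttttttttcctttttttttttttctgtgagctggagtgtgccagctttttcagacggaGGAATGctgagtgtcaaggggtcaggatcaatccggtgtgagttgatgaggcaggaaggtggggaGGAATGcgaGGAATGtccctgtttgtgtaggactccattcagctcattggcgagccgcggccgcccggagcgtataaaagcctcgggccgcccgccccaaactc
ANKRD1, chr10:90921088-90921337: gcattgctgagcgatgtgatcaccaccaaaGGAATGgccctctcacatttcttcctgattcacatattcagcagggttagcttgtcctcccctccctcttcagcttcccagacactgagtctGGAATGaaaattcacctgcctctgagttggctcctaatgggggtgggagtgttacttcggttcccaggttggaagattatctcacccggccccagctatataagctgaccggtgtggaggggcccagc
AMOTL2, chr3:134374448-134374697: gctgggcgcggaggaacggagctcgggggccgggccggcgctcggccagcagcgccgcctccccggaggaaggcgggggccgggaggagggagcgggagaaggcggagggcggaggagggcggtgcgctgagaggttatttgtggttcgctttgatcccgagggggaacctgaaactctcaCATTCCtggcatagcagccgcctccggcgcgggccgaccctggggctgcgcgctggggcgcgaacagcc
YAP1, chr11:102110197-102110446: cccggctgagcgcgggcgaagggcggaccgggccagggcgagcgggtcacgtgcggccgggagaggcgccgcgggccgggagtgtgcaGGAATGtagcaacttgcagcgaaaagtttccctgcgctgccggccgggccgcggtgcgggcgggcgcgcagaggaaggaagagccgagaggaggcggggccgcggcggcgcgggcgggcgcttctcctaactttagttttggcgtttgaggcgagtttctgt

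The motif occurred 3 times in the CTGF window, with first bases at 169, 104 and 95 bases before the start, and 2 times in the ANKRD1 window, at 220 and 128 bases. YAP1 had 1 match, and AMOTL2 and AJUBA had 1 match each before one of their 2 starts. In both genes the start without a match is the one nearer the 5′ end of the gene. The RefSeq starts used for AMOTL2 and ANKRD1 lie inside the gene bounds given here from the deposited tables. At least 1 match was found in 11.9% of the 35116 windows in the table, at least 2 in 0.940% and at least 3 in 0.0826%. No match lay in the 250 bases before the WWTR1 and LATS2 starts, and 1 reached past the LATS2 start. A match is a string of letters and no measured binding site. Among the members called in both fits of 7 libraries, those with matches both rose (CTGF) and fell (YAP1, AMOTL2), and CYR61 had no window.

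CYR61 (ENSG00000142871, chromosome 1, 85580761 to 85583962), a secreted matrix-associated protein of the CCN family, fell in the 7 libraries. Its levels were 1246, 1169, 1146 and 1138 CPM in c-di-GMP replicates 1 to 4, against 1372, 1240 and 1287 CPM in vehicle replicates 1, 2 and 4. The groups overlapped by c-di-GMP replicate 1 alone, which lay above vehicle replicate 2. Its log2 fold change was -0.15 ± 0.04, and -0.13 ± 0.04 GC-corrected (edgeR adjusted p = 0.0150 and 0.0157), with -0.14 ± 0.12 over 8 libraries, so that CYR61 kept its sign throughout. The call was lost without c-di-GMP replicate 3 or 4 in the uncorrected fit (edgeR adjusted p = 0.0567 and 0.0602, log2 fold changes -0.13 and -0.14). In the corrected fit it was lost without c-di-GMP replicate 3 or 4 or vehicle replicate 1 or 4 (edgeR adjusted p = 0.0544 to 0.110, log2 fold changes -0.13 to -0.10).

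CTGF (ENSG00000118523, chromosome 6, 131948176 to 131951373), a relative of CYR61 in the same family, went the other way. It had 260.2, 237, 248 and 247 CPM in c-di-GMP replicates 1 to 4 and 232, 227 and 229.8 CPM in vehicle replicates 1, 2 and 4, without overlap. The log2 fold change was 0.11 ± 0.04, and 0.15 ± 0.03 GC-corrected (edgeR adjusted p = 0.0458 and 0.00342). The uncorrected call was lost without vehicle replicate 2 or 4 or c-di-GMP replicate 1, 3 or 4 (edgeR adjusted p = 0.0898 to 0.217, log2 fold changes 0.08 to 0.11), whereas the corrected one held without each of the 7 (largest edgeR adjusted p = 0.0244). When a trend with gene length was taken out as well, the log2 fold change was 0.09 and missed the threshold (edgeR adjusted p = 0.0598). With vehicle replicate 3 the fold change was of the opposite sign.

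The ratio of CYR61 to CTGF counts shows the contrast within each library, free of scaling. It was 4.79, 4.94, 4.61 and 4.62 in c-di-GMP replicates 1 to 4, against 5.92, 5.46 and 5.60 in vehicle replicates 1, 2 and 4. The 4 c-di-GMP ratios lay below these 3, while vehicle replicate 3, at 1.85, lay below all. The ratio of CTGF to YAP1 counts was 0.835 to 0.905 with c-di-GMP and 0.756 to 0.763 in the same 3 vehicle libraries, again without overlap, and 6.74 in vehicle replicate 3. That of CYR61 to YAP1 overlapped, at 4.12 to 4.30 with c-di-GMP and 4.13 to 4.52 with vehicle. CYR61 has 50.3% GC, CTGF 51.5% GC and YAP1 43.5% GC, so the ratios to YAP1 carry each library's GC trend. GC-corrected, the lowest CYR61 to YAP1 ratio with c-di-GMP was in replicate 2, at 1166 and 274 CPM. It lay above the highest of the 3 vehicle libraries, vehicle replicate 1, at 1343 and 321 CPM. The corrected ratios thus did not overlap and were higher with c-di-GMP.

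ANKRD1 (ENSG00000148677, chromosome 10, 90912096 to 90921276), a nuclear and sarcomeric ankyrin repeat protein first known from heart muscle, was higher without the GC correction only. Its libraries held 401, 380.17, 409 and 408 CPM with c-di-GMP, against 352, 364 and 380.14 CPM in vehicle replicates 1, 2 and 4, so that c-di-GMP replicate 2 lay barely above vehicle replicate 4. Its log2 fold change was 0.13 ± 0.04, and 0.04 ± 0.03 GC-corrected, where the groups overlapped (edgeR adjusted p = 0.0223 and 0.474). Leaving out c-di-GMP replicate 1, 3 or 4 ended the uncorrected call (edgeR adjusted p = 0.0731 to 0.101, log2 fold changes 0.11 to 0.12). ANKRD1 is 43.3% GC, and genes of 40 to 45% GC had a median log2 fold change of 0.10.

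ARHGEF17 (ENSG00000110237, chromosome 11, 73308289 to 73369388), listed among targets of YAP and TAZ, had the largest fall of the 10 before correction. It stood at 79.6, 86.5, 80.2 and 82.8 CPM with c-di-GMP, against 116, 95.2 and 98.9 CPM in vehicle replicates 1, 2 and 4, without overlap. Vehicle replicate 1 was the highest of the 7. The log2 fold change was -0.33 ± 0.06 (edgeR adjusted p = 1.03e-04), so that it fell by 20.5%. It was -0.24 without vehicle replicate 1 (range over leaving out each library -0.39 to -0.24, called each time). GC-corrected it was -0.04 ± 0.04, with a 95% interval from -0.13 to 0.04, and the groups overlapped (edgeR adjusted p = 0.529). Its opposite-strand neighbour AP002761.3 is counted as a gene of its own.

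AMOTL2 (ENSG00000114019, chromosome 3, 134355874 to 134375479), a junction protein of the angiomotin family that binds YAP and is itself a target, fell in both fits. It had 195, 195, 192 and 195 CPM in c-di-GMP replicates 1 to 4, against 268, 217 and 221 CPM in vehicle replicates 1, 2 and 4. The c-di-GMP libraries lay close together and below the 3 vehicle libraries, of which vehicle replicate 1 lay well above the other pair. This corresponds to a log2 fold change of -0.28 ± 0.05, and -0.14 ± 0.04 GC-corrected (edgeR adjusted p = 4.22e-04 and 0.0115). Without vehicle replicate 1 it was -0.17 (edgeR adjusted p = 5.10e-04), and -0.08 GC-corrected, where the call was lost (edgeR adjusted p = 0.170).

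AJUBA (ENSG00000129474, chromosome 14, 22971174 to 22982642), a LIM protein that binds LATS kinases and limits their activity, fell without the correction. Its levels were 266, 276, 286 and 283 CPM with c-di-GMP, against 315, 311 and 300.4 CPM in vehicle replicates 1, 2 and 4, without overlap. The log2 fold change was -0.16 ± 0.04 (edgeR adjusted p = 0.00579), and the call held without each of the 7 libraries (largest edgeR adjusted p = 0.0293). GC-corrected it was -0.09 ± 0.03, just short of the threshold (edgeR adjusted p = 0.0549), and the corrected values did not overlap either.

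LATS2 (ENSG00000150457, chromosome 13, 20973032 to 21061547), a kinase that inactivates YAP and TAZ and is induced by them, was called lower without the correction. It had 67.3, 72.1, 64.2 and 69.8 CPM with c-di-GMP and 85.2, 72.0 and 72.3 CPM in vehicle replicates 1, 2 and 4, and the groups overlapped. Uncorrected, the log2 fold change was -0.16 ± 0.06, and -0.12 ± 0.05 GC-corrected (edgeR adjusted p = 0.0366 and 0.112). Without vehicle replicate 1 it was -0.08 (edgeR adjusted p = 0.287), and the call was also lost without c-di-GMP replicate 1, 3 or 4 (edgeR adjusted p = 0.0506 to 0.124, log2 fold changes -0.18 to -0.13). GC-corrected it was -0.05 without vehicle replicate 1 (edgeR adjusted p = 0.624), and it was called without vehicle replicate 2, at -0.15 (edgeR adjusted p = 0.0492). LATS1, the other kinase of the pair, had 0.14 ± 0.06, and 0.02 ± 0.05 GC-corrected (edgeR adjusted p = 0.0733 and 0.846).

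Vehicle replicate 1 thus stood above vehicle replicates 2 and 4 for AMOTL2, LATS2 and ARHGEF17. The ratio of AMOTL2 to TEAD1 counts, within a library, was 0.509 to 0.569 with c-di-GMP, against 0.799, 0.621 and 0.631 in vehicle replicates 1, 2 and 4. The c-di-GMP values lay below all 3. AMOTL2 has 56.7% GC and TEAD1 41.3% GC, so this ratio, though free of scaling, carries each library's GC trend. GC-corrected, AMOTL2 and TEAD1 stood at 198 and 329 CPM in c-di-GMP replicate 3, and at 212 and 357 CPM in vehicle replicate 2. Between these 2 libraries the corrected ratio was higher with c-di-GMP, so the groups then overlapped. Vehicle replicate 3, where both genes were low, had a ratio of 0.756.

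In the largest lists the other genes of the pathway were called about as often as all genes, and less often than genes at or above the level of the lowest member. Of 19 core kinases and upstream regulators, 1 rose and 4 fell in the 7 libraries, with a median log2 fold change below 0.01 in size, and 1 rose and 3 fell GC-corrected, with a median of -0.04. These 5 and 4 of 19 stand beside 29.6% and 15.2% of all genes called. Among genes at or above the level of the lowest member, the shares were 53.8% and 31.6%. The 19 have levels on both sides of that one, and a share matched to their levels was not taken. Only WWC3, a scaffold related to KIBRA, was called in both fits, and the gene that rose was not the same in each. WWC3 fell in both, at 216 ± 7.07 CPM (SD, n = 4) with c-di-GMP and 243 ± 13.1 CPM (SD, n = 3) with vehicle (log2 fold change -0.18 ± 0.04, and -0.10 ± 0.03 GC-corrected, edgeR adjusted p = 0.00392 and 0.0396). NF2 was at -0.08 (95% interval -0.25 to 0.10) and 0.04 (-0.12 to 0.20) GC-corrected (edgeR adjusted p = 0.537 and 0.800).

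Of 5 angiomotin, LIM and junction genes, 4 were tested, 2 fell and 0 rose in either fit, and the medians were -0.11 and -0.12. Of all genes 16.2% fell, and 6.62% GC-corrected, and with 4 genes the counts allow no reading against these shares. The 2 that fell, WTIP and LIMD1, are relatives of AJUBA. WTIP stood at 24.8 ± 1.58 CPM (SD, n = 4) with c-di-GMP and 32.1 ± 3.27 CPM (SD, n = 3) with vehicle, a log2 fold change of -0.37 ± 0.07, and -0.26 ± 0.06 GC-corrected (edgeR adjusted p = 4.17e-04 and 0.00550). LIMD1 had -0.13 ± 0.05 and -0.15 ± 0.04 (edgeR adjusted p = 0.0481 and 0.0154). Of 7 TEAD and VGLL genes 5 were tested, and 3 fell without the correction and 0 with it, beside the same 16.2% and 6.62% of all genes.

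Of 16 further genes commonly listed as YAP and TAZ targets, 1 rose and 4 fell without the correction, and 0 rose and 3 fell with it. These 5 and 3 of 16 are near the 29.6% and 15.2% of all genes called. They are below the 53.8% and 31.6% among genes at or above the level of the lowest member. Some of the 16, such as AXL, lie above that level and others below it, and a share matched to their levels was not taken. The 16 had a median log2 fold change of -0.02, and -0.05 GC-corrected, against medians below 0.01 in size for all genes. AXL, a receptor tyrosine kinase, was at 1144 ± 15.1 CPM (SD, n = 4) with c-di-GMP and 1289 ± 48.2 CPM (SD, n = 3) with vehicle. Its log2 fold change was -0.17 ± 0.04, and -0.09 ± 0.03 GC-corrected (edgeR adjusted p = 0.00214 and 0.0410). CCDC80, a secreted protein, had -0.14 ± 0.05 and -0.23 ± 0.05 (edgeR adjusted p = 0.0446 and 0.00155). With 8 libraries 0 genes of these 4 lists were called. There WWC3 and AXL, lower in both fits of 7 libraries, had positive log2 fold changes of 0.10 and 0.09, and TEAD3 one of 0.07. WTIP, LIMD1 and CCDC80 stayed negative. PTPN14, a phosphatase that belongs to 2 of the lists, was called in neither fit.

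By distance of centred log2 CPM over the 7 libraries, the genes closest to CYR61 among 14101 were RUSC1, WDR46 and FUCA1, with root mean square differences of 0.020 to 0.022. The nearest member to CYR61 was YAP1, at 0.044. Closest to CTGF were PDZK1IP1, ZNF700 and STAMBPL1, at 0.016 to 0.019, and the nearest member was WWTR1, at 0.038. Neither of the 2 related targets was the nearest member of the other. As they changed in opposite directions in these same 7 libraries, this adds no separate result. The nearest genes were drawn from a far larger pool than the members, and the distances were not GC-corrected.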

How the data were processed

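The authors deposited read counts per gene and FPKM values, per the file headers. The submitters' processing notes name DESeq2 1.20.0, featureCounts 1.5.0-p3, HISAT2 2.0.5, CASAVA 1.8 and fastp, without settings, and a mouse genome build. The deposited tables hold human identifiers, and all 16383 count rows have their coordinates in GENCODE v29 (GRCh38). The strand setting is not given in the sources used here. The lowest total of a listed gene is 55 counts, and 22 date-like gene names were restored from identifiers.

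Counts were filtered (filterByExpr, minimum count 10, total 15), scaled by TMM and tested with edgeR 4.0.16 in R 4.3.3 (quasi-likelihood F test, c-di-GMP over vehicle, treatment as the only term, Benjamini-Hochberg over all genes, threshold 0.05). The GC correction entered each library's lowess trend (span 0.3) of log2 CPM (prior count 2) on GC content of the longest transcript as an offset. Alternatives used DESeq2 1.42.0, limma 3.58.1 (voom, and log2 of the deposited FPKM plus 0.1 or 1), other scalings and filters, a replicate block, a length trend and leaving out libraries. The procedure was also run on simulated counts with the same spread for all genes and no outlying library. That run does not cover a library such as vehicle replicate 3.

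Members, lists and comparisons were chosen with earlier results of these data known. All members are named, and of each list up to 4 genes called in both fits of 7 libraries with 1 sign, besides TEAD2, TEAD3, TEAD4, LATS1 and NF2. PTPN14 was named after its values were seen. Markers follow a list of their own. Nearest genes had a mean of at least 1 CPM.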

Additional observations from a re-analysis of the deposited data

Results flagged for a closer look

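In 5 of 20 groups of 4 libraries (10 genes, each with c-di-GMP and with vehicle), 1 library lay so far from the nearest other that the gap took most of the group's range, where about 1 in 20 groups would show this by chance. All 5 were vehicle replicate 3. In it YAP1 stood at 98.3 CPM (other vehicle libraries 283.6 to 285.3 CPM), TEAD1 at 84.0 CPM (315.4 to 329.8 CPM) and AJUBA at 143 CPM (282.7 to 296.6 CPM), all low. WWTR1 stood at 164 CPM (86.8 to 90.5 CPM) and CTGF at 662 CPM (214.5 to 217.7 CPM), both high.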

How the results depend on the processing

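With 8 libraries DESeq2 called 134 genes, and leaving out 1 library gave 0 to 4633 genes and 0 to 8 members, the highest of both without vehicle replicate 3 and 0 in the other cases. ARHGEF17 (main value -0.01) turned to 0.0032 with DESeq2, 0.0028 with its size factors, 0.22 with limma-voom, 0.0256 without TMM, 0.26 and 0.19 on log2 FPKM with 0.1 and 1 added, 0.21 with the replicate block, and -0.33 to 0.20 when 1 library was left out. WWTR1 turned to 0.0123 without TMM and AMOTL2 to -0.0042 with the stricter filter. Without vehicle replicate 3 signs turned for YAP1, WWTR1, CTGF, AMOTL2, AJUBA and LATS2, whose values with 1 library left out ranged from -0.11 to 0.25, -0.30 to 0.0649, -0.64 to 0.11, -0.28 to 0.21, -0.16 to 0.13 and -0.16 to 0.31. Scaling without TMM moved the median of all genes to 0.08, against -0.05.

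With 7 libraries, 5 members were called on log2 FPKM with either addition, and 3 to 7 with 1 library left out (3 without c-di-GMP replicate 3 or 4, 5 without c-di-GMP replicate 1). Of 160 member values under alternatives 129 kept direction and call, 31 missed the threshold and 0 changed sign. GC-corrected, leaving out 1 library gave 1476 to 2638 genes (1476 without vehicle replicate 1, 1551 without vehicle replicate 4) and 2 to 5 members (2 without vehicle replicate 1), and with the length trend ANKRD1 turned to -0.0341 and ARHGEF17 to 0.0017. The causes were not tested.

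The replicate block called 0 genes with 8 libraries, 4093 genes and 3 members with 7, and 1598 genes and 3 members with the GC correction. With 8 libraries, same-numbered libraries deviated together at correlations of 0.0024, 0.18, 0.12 and -0.06, and 4 of 8 libraries correlated best with their own number. Without vehicle replicate 3 the correlations were 0.0154, -0.0089 and 0.0058 for numbers 1, 2 and 4. The labels name no pairs, and the numbers were not taken as pairs. The count of 4 of 8 does not settle this.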
